A study of Mus musculus with 28 samples.

Results

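Hepatocytes along the liver lobule do different work depending on their place between the portal vein, where blood enters, and the central vein, where it leaves. Periportal hepatocytes are known for making glucose, breaking down amino acids and making urea, and pericentral hepatocytes for glutamine synthesis and much of xenobiotic oxidation. The 10 genes described here are markers of the periportal side: Pck1, Fbp1 and G6pc of gluconeogenesis, Hal, Sds and Gls2 of amino acid breakdown, the cytochrome P450 Cyp2f2, the mitochondrial aldehyde dehydrogenase Aldh1b1, the lipid droplet protein Hsd17b13 and the lysosomal protease Ctsc. They were taken by symbol from a table of 18182 genes. All 10 had reads in every library and were among the 14117 genes that passed the filter on low counts.

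RNA was sequenced from 28 samples of liver tissue of c-Myc/Alb-cre transgenic mice, 14 of hepatocellular carcinoma and 14 of the tissue around the tumour (peritumour). Alb-cre places Cre recombinase under the albumin promoter, which is active in hepatocytes, and tumour and peritumour tissue carry the same genotype, so the peritumour samples are not liver of unmodified mice. Titles give 11 tumour (Tu_F) and 11 peritumour (Pe_F) samples with the letter F and 3 of each (Tu_M, Pe_M) with the letter M, and the labels do not spell out these letters. Each tumour shares a code with 1 peritumour sample. The code was read as the animal, which gave 14 pairs, named here by letter and replicate number (pair F 2, for instance). The codes come in 2 styles, one in 12 libraries (pairs F 1 to F 3 and all M) and the other in 16 (pairs F 4 to F 11). Age, feeding state and time of sampling are not given in the sources used here. Levels are estimated counts per 1000000 of a library's total (CPM). Totals ran from 14777567 to 17576921 estimated counts, so sampling error is small at these levels and the spread between animals sets the precision.

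As a check of the tissue, the summed level of 8 hepatocyte markers (such as albumin) was 16155 to 57400.5 CPM in peritumour tissue and 20380 to 46516 CPM in tumour. Its median was 40470.5 CPM in peritumour tissue and 29478 CPM in tumour, and the sum was lower in tumour in 11 of 14 pairs. In the paired test described further on, 6 of the 8 markers had values under 0 and 2 (Alb and Cyp3a11) passed as lower. Alb held most of the sum (mean 26510 CPM in peritumour tissue), and the markers did not move alike. Apoa1 was higher in tumour in 9 of 14 pairs, and Hnf4a and Serpina1c in 7 each. The part of hepatocyte content in the differences of the 10 genes was not tested. No marker of the 8 lists of cell type markers was at 0 throughout a group. In bulk tissue, fewer cells of a type and less RNA per cell cannot be told apart. Libraries of pairs F 2, F 5 and F 6 carried markers of granulocyte precursors at 159 to 427 CPM summed. All other libraries but the tumour of pair F 4 (284 CPM) held 5.70 to 79.8 CPM. Members were also tested without pairs F 2, F 5 and F 6, where both libraries were that high. Pair F 4, with only its tumour that high, was kept, and this choice was made with earlier results of these data known. Bulk samples hold no position, so what follows is about the RNA level of genes with a known periportal place, not about where in the lobule they were read.

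The promoters of the gluconeogenic genes are shown first because Pck1 and G6pc are textbook targets of fasting signals. The sequences are the 250 bases before the start site in RefSeq, on GRCm38.p6, where 8 of the 10 members had an entry. Capitals mark a match to a searched motif. In Pck1 it is TTACGTCA, a variant of the cyclic AMP response element, 93 to 86 bases before the start. In G6pc it is CTTTGAT, a TCF-type motif, 113 to 107 bases before the start.

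Pck1, chr2:173152823-173153072, plus strand: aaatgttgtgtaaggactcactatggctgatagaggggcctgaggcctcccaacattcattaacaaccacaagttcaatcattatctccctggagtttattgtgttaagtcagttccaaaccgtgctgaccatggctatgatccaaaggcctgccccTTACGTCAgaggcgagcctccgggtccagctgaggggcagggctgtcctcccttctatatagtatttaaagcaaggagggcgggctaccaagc

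G6pc, chr11:101367466-101367715, plus strand: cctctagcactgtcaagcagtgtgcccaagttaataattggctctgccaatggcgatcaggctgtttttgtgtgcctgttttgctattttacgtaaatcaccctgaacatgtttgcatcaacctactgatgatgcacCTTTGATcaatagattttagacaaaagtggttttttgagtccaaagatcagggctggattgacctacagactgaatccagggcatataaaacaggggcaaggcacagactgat

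Both strands of each 250-base window were searched for TGACGTCA and TTACGTCA (cyclic AMP response elements), TGTTTAC (forkhead), CACGTG (E-box), CTTTGAT (TCF) and an HNF1 motif. TTACGTCA occurred in 0.447% of 32851 RefSeq promoter windows of the same length and CTTTGAT in 3.21%. Besides these 2 matches, the Hal promoter held CTTTGAT 199 to 193 bases before its start. The other 5 windows (Cyp2f2, Hsd17b13, Aldh1b1, Ctsc and Fbp1) held no match, which says only that these letters are not in those windows. RefSeq places the starts of Fbp1 and Ctsc inside the gene bounds of the deposited table, so the Fbp1 window lies wholly and the Ctsc window partly within those bounds. A match is a description of the sequence and not a measured binding site.

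Levels can be compared between genes only per length, as transcripts per 1000000 (TPM). In peritumour tissue Hsd17b13 was the highest of the 10 with a mean of 984 TPM, then Fbp1 (632 TPM), Pck1 (417 TPM), Aldh1b1 (399 TPM), G6pc (297 TPM), Cyp2f2 (289 TPM), Sds (246 TPM), Gls2 (182 TPM), Hal (89.7 TPM) and Ctsc (40.3 TPM). In tumour the order began with Hsd17b13 (870 TPM) and Aldh1b1 (499 TPM), ahead of Fbp1 (408 TPM) and Sds (279 TPM). Pck1 measured 262 TPM and G6pc 230 TPM in tumour. Pck1 and Aldh1b1 were closer than their standard deviations between animals in peritumour tissue (178 and 100.1 TPM), and so were G6pc, Cyp2f2 and Sds as neighbours (92.5, 154 and 139 TPM), so the order within each of these sets is not firm.

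The comparison the series names is tissue inside the tumour against tissue around it. Fbp1 and Pck1 were lower in tumour when each tumour was compared with its own peritumour sample, by log2 fold changes of -0.74 ± 0.15 and -0.86 ± 0.25 (SE, n = 14 pairs). Aldh1b1 and Sds were the higher of the pair in 12 and 11 of 14 tumours without passing the test over all pairs. Hal and Gls2 measured -0.08 ± 0.15 and -0.04 ± 0.15 (SE). Tumour and peritumour ranges overlapped for all 10 genes, and 0.0% of all genes tested were separated.

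**Figure D1:**
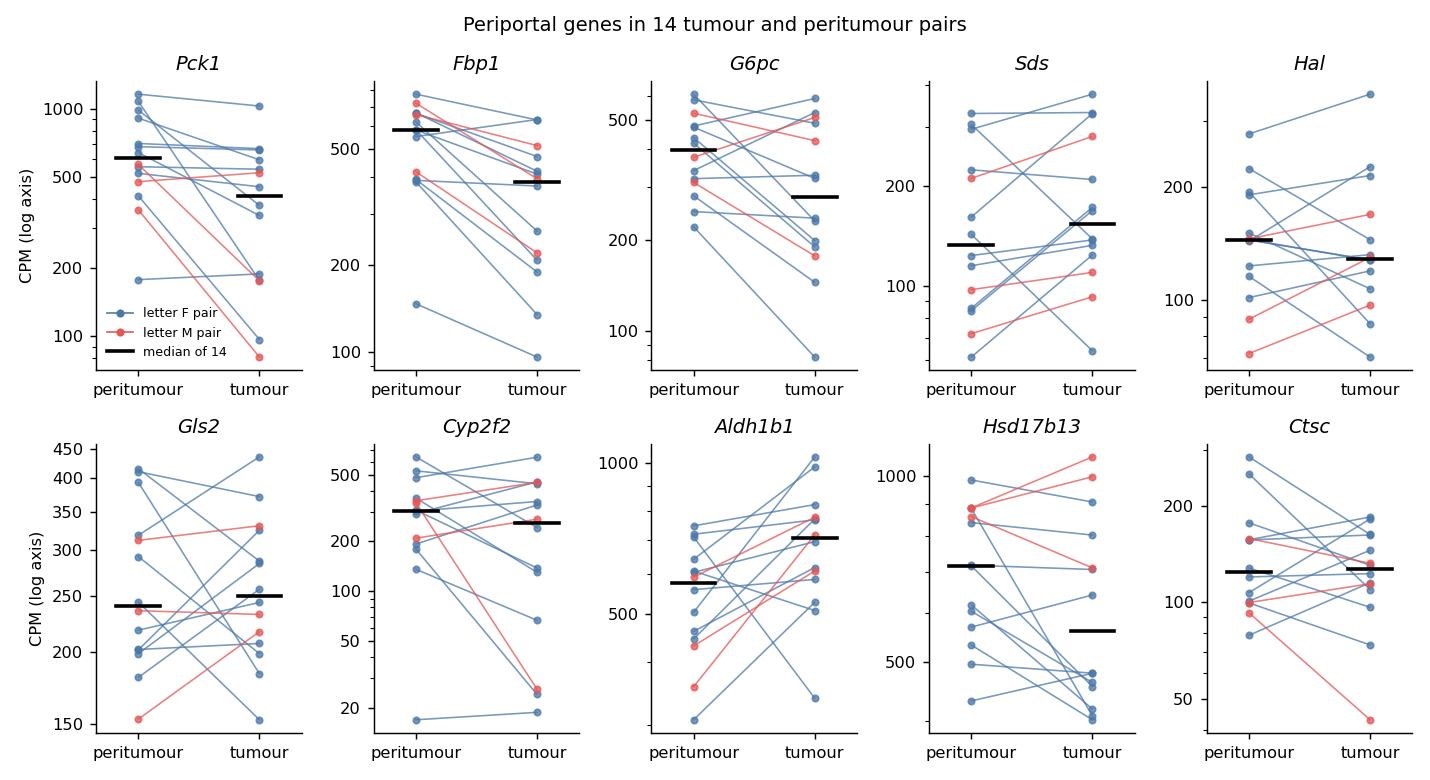
Level of each of the 10 periportal genes in peritumour and tumour tissue, in CPM on a log axis, with a line for each of the 14 pairs (blue, letter F; red, letter M) and a black bar at the median of each tissue. Lines of Fbp1 and Pck1 mostly run downward and those of Aldh1b1 mostly upward, while the longest downward lines of Cyp2f2 are those of pairs M 3 and F 6 and its level ranges from 16.9 to 640.5 CPM in peritumour tissue.

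Fbp1 encodes fructose-1,6-bisphosphatase, which takes the phosphate off fructose bisphosphate on the way to glucose. It lies on chromosome 13 at 62864753 to 62889038 on the minus strand (gene ID 14121, GRCm38, as for all coordinates here). Its level in Pe_F ran from 147 CPM through a median of 582 CPM to 772 CPM, and in Tu_F from 96.4 CPM through 373 CPM to 632 CPM. The 3 Pe_M samples measured 658, 418 and 719 CPM and their tumours 514, 220 and 395.5 CPM. The ranges overlapped, and the lowest value of each tissue came from the same animal, pair F 5. Over the 14 pairs the mean was 539 ± 171 CPM in peritumour and 354 ± 174 CPM in tumour (SD, n = 14 each). With library composition normalised by TMM, a scaling of library totals, tumour was lower in 12 of 14 pairs, the exceptions being pairs F 10 and F 11. On plain CPM it was lower in 13 of 14, with pair F 11 the exception. Of all genes tested, 7.03% were lower in at least 12 of 14 pairs.

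Pck1 encodes the cytosolic phosphoenolpyruvate carboxykinase, the enzyme that commits oxaloacetate to gluconeogenesis, and lies on chromosome 2 at 173153073 to 173159254 on the plus strand (gene ID 18534). It ran from 178 CPM through a median of 682 CPM to 1159.6 CPM in Pe_F and from 96.9 CPM through 455 CPM to 1029 CPM in Tu_F. Pe_M samples held 478.5, 360 and 569 CPM, and their tumours 524, 81.1 and 175.5 CPM. The difference was uneven over the animals. In pairs F 6, F 7, M 2 and M 3 tumour minus peritumour lay between -2.70 and -1.80 on the log2 scale. In pairs F 2, F 8 and F 9 it lay between -1.38 and -0.71. In the remaining 7 pairs it lay between -0.14 and 0.14. Tumour was the lower of the pair in 11 of 14 animals, and in 12 on plain CPM.

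G6pc encodes the catalytic subunit of glucose-6-phosphatase, the last step of glucose output, and lies on chromosome 11 at 101367716 to 101377903 on the plus strand (gene ID 14377). Peritumour levels ran from 221 CPM through a median of 396.5 CPM to 607 CPM and tumour levels from 81.8 CPM through 277.5 CPM to 587 CPM. Tumour was lower in 11 of 14 pairs (10 on plain CPM), and the largest differences were those of pairs F 2, F 7 and F 5, from -1.53 to -1.46 on the log2 scale. Pair F 10 went the other way, from 339 CPM to 527 CPM. Of all genes tested, 14.1% were lower in at least 11 of 14 pairs.

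The test across all genes was edgeR's quasi-likelihood test with Benjamini-Hochberg adjustment over all 14117 genes, once with code style and letter as covariates and once with the animal as a block, so that each tumour is set against its own peritumour sample. Without the block, 0 of the 10 genes passed at an adjusted p of 0.05, where 1.05% of all genes did. Fbp1 and Aldh1b1 had an unadjusted p under 0.05 (0.0349 and 0.0450), a level reached by 18.9% of all genes, and DESeq2 with the same design also passed 0 of the 10 (4.41% of all genes). With the block, Fbp1 and Pck1 passed as lower. That is 2 of 10 in a fit where 5.91% of all genes passed as lower and 11.5% in either direction.

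Fbp1 fell by 0.74 ± 0.15 on the log2 scale (SE, n = 14 pairs) with the block, 95% interval -1.03 to -0.46, adjusted p = 0.00581 (edgeR), and its value without the block was -0.61 ± 0.27, adjusted p = 0.227 (edgeR). Leaving out each animal in turn kept the paired call in 14 of 14 fits, with values from -0.83 to -0.67. Pck1 fell by 0.86 ± 0.25 (SE, n = 14 pairs), 95% interval -1.35 to -0.38, adjusted p = 0.0336 (edgeR), against -0.66 ± 0.33 and adjusted p = 0.280 without the block. The Pck1 call was lost in 7 of the 14 fits that leave out an animal (pairs F 2, F 6, F 7, F 8, F 9, M 2 and M 3), with adjusted p from 0.0504 to 0.0715 (edgeR). G6pc measured -0.51 ± 0.18 with the block, adjusted p = 0.0766 (edgeR), and passed in 1 of 14 such fits, the one without pair F 10 (-0.60, adjusted p = 0.0490). The authors' deposited table gives log2 fold changes of -0.61 for Fbp1, -0.65 for Pck1 and -0.33 for G6pc.

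Code style was looked at as a possible batch. Within the 6 pairs of the first style Fbp1 measured -0.77 and Pck1 -0.89 with the block, and within the 8 pairs of the second style they measured -0.71 and -0.83. Their unadjusted p was 0.00259 and 0.0287 in the first style and 0.00413 and 0.0293 in the second (edgeR). Neither passed the adjusted threshold within a style (adjusted p of Fbp1 0.483 and 0.0521, of Pck1 0.542 and 0.132, edgeR), where 0 genes of the whole table passed in the first style and 7.51% in the second. Without pairs F 2, F 5 and F 6 Fbp1 measured -0.59 (adjusted p = 0.0188) and Pck1 -0.78 (adjusted p = 0.0727, edgeR).

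**Figure D2:**
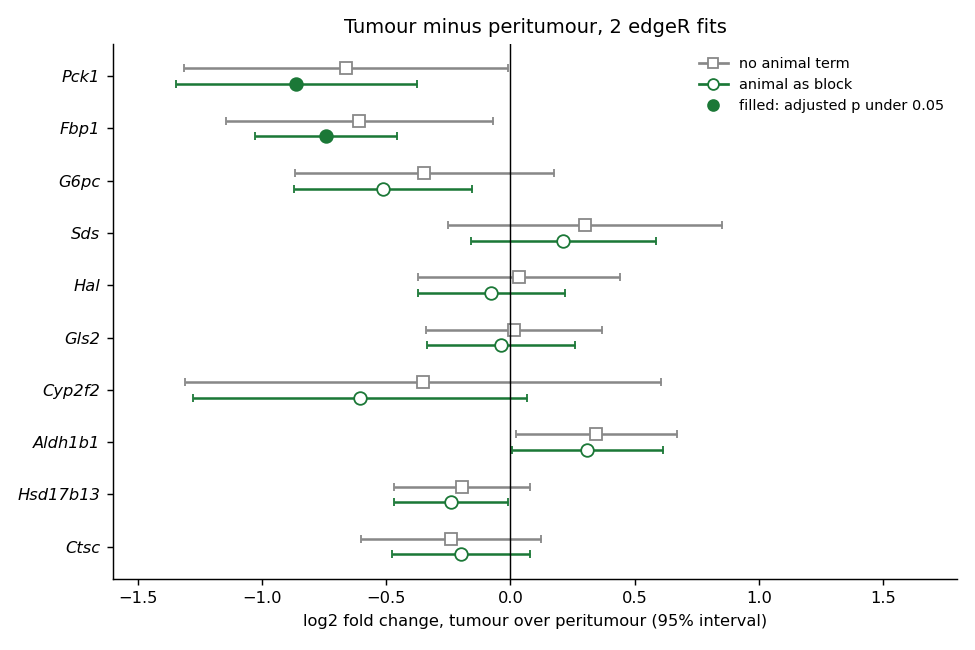
Log2 fold change of tumour over peritumour for the 10 genes with 95% intervals, from edgeR without an animal term (grey squares) and with the animal as a block (green circles), where filled symbols passed the adjusted p threshold of 0.05. Only the paired values of Pck1 (-0.86) and Fbp1 (-0.74) are filled, and Cyp2f2 has the widest intervals. Intervals take the SE with a normal distribution and are narrower than the edgeR test implies. That of paired Aldh1b1 (0.0054 to 0.615) leaves out 0 at an unadjusted p of 0.0620 (edgeR).

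Hal, Sds and Gls2 each open or carry an amino acid breakdown route. Hal encodes histidine ammonia-lyase, the first step of histidine breakdown (chromosome 10 at 93488768 to 93516761, gene ID 15109). Sds encodes serine dehydratase, which turns serine into pyruvate (chromosome 5 at 120476547 to 120483932, gene ID 231691). Gls2 encodes the liver glutaminase, which frees ammonia from glutamine for urea synthesis (chromosome 10 at 128194635 to 128210004, gene ID 216456). None of the 3 passed in the fit over all pairs.

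Hal ran from 72.0 CPM through a median of 144 CPM to 276 CPM in peritumour tissue and from 70.4 CPM through 129 CPM to 353 CPM in tumour. Gls2 ran from 153 CPM through 240 CPM to 416 CPM in peritumour tissue and from 152.5 CPM through 250.2 CPM to 436 CPM in tumour. Their paired values were -0.08 ± 0.15 for Hal, adjusted p = 0.771, and -0.04 ± 0.15 for Gls2, adjusted p = 0.894 (SE, edgeR). The 95% intervals, -0.37 to 0.22 and -0.33 to 0.26, leave room for a difference of that size in either direction. Both were split over the animals, with Hal higher in tumour in 8 of 14 pairs and Gls2 in 7 of 14.

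Sds ran from 61.2 CPM through 133 CPM to 329 CPM in peritumour tissue and from 64.0 CPM through 153.5 CPM to 376 CPM in tumour. Tumour was higher in 11 of 14 pairs, a count that 12.6% of all genes reached or passed in that direction, and lower in pairs F 2, F 3 and F 5. In pairs F 8, F 9, F 10 and F 11 it was higher by 0.92 to 1.17 on the log2 scale. The paired value over all animals was 0.21 ± 0.19 (SE), adjusted p = 0.484 (edgeR). Without pairs F 2, F 5 and F 6 it was 0.50, adjusted p = 0.0233 (edgeR), in a fit where 14.9% of all genes passed in either direction. That fit leaves out pairs F 2 and F 5, where Sds was lower, so its call is not independent of that choice. Within the first code style Sds measured -0.11 ± 0.24 and within the second 0.47 ± 0.23 (SE), so the direction turned between styles. Gls2 also turned, from -0.28 ± 0.23 to 0.14 ± 0.17 (SE). None of these 4 values passed, and the difference between styles was not tested.

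Aldh1b1, a mitochondrial aldehyde dehydrogenase that oxidises acetaldehyde and other aldehydes, lies on chromosome 4 at 45799022 to 45804608 (gene ID 72535). It ran from 307 CPM through a median of 605 CPM to 749 CPM in Pe_F and from 339 CPM through 696 CPM to 1028 CPM in Tu_F. Pe_M samples measured 591, 358 and 431 CPM and their tumours 779, 719 and 608.5 CPM, so the 3 M tumours all lay above the 3 M peritumour samples, as for 6.52% of all genes tested. Tumour was higher in 12 of 14 pairs, as in 6.13% of all genes, and lower in pairs F 2 and F 5. The paired value was 0.31 ± 0.16 (SE), adjusted p = 0.201 (edgeR). Pair F 2 alone decided the call: without it the value was 0.44, adjusted p = 0.0169. Without pairs F 2, F 5 and F 6 it was 0.54, adjusted p = 0.00810 with the block and 0.0430 without it (edgeR). Those fits leave out both pairs in which Aldh1b1 was lower, so they are no separate support for a rise.

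Cyp2f2, a cytochrome P450 used as a periportal landmark, lies on chromosome 7 at 27119955 to 27133660 (gene ID 13107). It was the most uneven of the 10. In peritumour tissue it ran from 16.9 CPM (pair F 5) through a median of 305 CPM to 640.5 CPM (pair F 3), and in tumour from 18.7 CPM (pair F 5) through 256 CPM to 638 CPM. The SD of its log2 CPM was 1.34 in peritumour tissue and 1.79 in tumour, against a median over all genes of 0.36 and 0.50, and only 1.76% and 1.78% of genes had a larger one. Tumour was lower in 7 pairs and higher in 7. The lowest tumours against their own peritumour tissue were those of pair M 3 (339 to 25.7 CPM) and pair F 6 (179 to 24.0 CPM), and the largest excess was 0.81 on the log2 scale in pair F 4. The paired value was -0.61 ± 0.34 (SE), adjusted p = 0.259 (edgeR). It was -1.17 ± 0.53 within the first code style and -0.20 ± 0.37 within the second (SE), -0.39 without pair M 3, and -0.34 without pairs F 2, F 5 and F 6, and it passed in none of these fits.

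Hsd17b13 encodes a hydroxysteroid dehydrogenase that coats lipid droplets (chromosome 5 at 103955442 to 103977388, minus strand, gene ID 243168). Tumour levels ran from 402 CPM through 560 CPM to 1074.5 CPM and peritumour levels from 432 CPM through 716 CPM to 986 CPM. The paired value was -0.24 ± 0.12 (SE), adjusted p = 0.189 (edgeR), and 9 of 14 pairs were lower in tumour. It was the one member whose peritumour level followed code style without overlap: the 6 samples of the first style held 840 to 986 CPM and the 8 of the second 432 to 717 CPM. Of all genes tested, 0.276% were separated in that direction. In tumour the 2 styles overlapped (408 to 1074.5 and 402 to 705 CPM). Among F samples alone the 3 of the first style (986, 886 and 840 CPM) also lay above the 8 of the second. Among those F samples Gls2 (394 to 416 against 181 to 318.5 CPM) and Hal (194 to 276 against 101 to 190 CPM) were split likewise. The share of all genes split among F samples alone was not counted. What the code styles stand for is not given in the labels.

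Ctsc encodes cathepsin C, the lysosomal dipeptidyl peptidase that activates granule proteases of lymphocytes and myeloid cells, and is therefore also a leukocyte gene (chromosome 7 at 88278023 to 88315864, gene ID 13032). It ran from 78.9 CPM through 124 CPM to 285 CPM in peritumour tissue and from 42.9 CPM through 127 CPM to 185 CPM in tumour. The paired value was -0.20 ± 0.14 (SE), adjusted p = 0.371 (edgeR), with 8 of 14 pairs lower in tumour. The 7 leukocyte markers summed to 172 to 369 CPM in peritumour tissue and 122 to 329 CPM in tumour. In pair F 11, where Ctsc went from 252 to 109.6 CPM, the leukocyte sum went from 275 to 146 CPM, and in pair F 9, the highest Ctsc sample in peritumour tissue, the sum was also the highest there (369 CPM). In pair F 2 Ctsc was the one member higher in tumour (107 to 182 CPM) and the leukocyte sum went from 225 to 329 CPM. On plain CPM, Ctsc and the leukocyte sum went in the same direction in 8 of 14 pairs and in opposite directions in 6. In pair F 1, for instance, Ctsc went from 101 to 145 CPM and the sum from 172 to 122 CPM. Most of the leukocyte sum was Lcp1 (mean 163 CPM in peritumour tissue). With the summed Kupffer cell and macrophage markers Ctsc went in the same direction in 10 of 14 pairs and in the other direction in 4. The part of leukocytes in the Ctsc level was not tested.

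The animals differed in how many of the 10 genes were lower in tumour, from 1 to 9. Log2 values of the members here use TMM scaling and those of the marker sums plain CPM, so the 2 are not on one scale. In pair F 2, 9 of 10 members were lower in tumour, with Fbp1 at -1.63 and a median over the 10 of -1.51 on the log2 scale. In the same pair the summed hepatocyte markers went from 44056 to 20380 CPM (log2 -1.11) and the summed cholangiocyte and progenitor markers from 129 to 1942 CPM. In pair F 10, 9 of 10 members were higher with TMM and 6 of 10 on plain CPM, with Fbp1, Pck1 and Hsd17b13 within 0.05 of 0 on the log2 scale, and the hepatocyte sum was lower (log2 -0.62). Pair F 5 had the lowest hepatocyte sum in peritumour tissue (16155 CPM), and there the hepatocyte sum was higher in tumour (log2 0.77) while 8 of 10 members were lower. The hepatocyte sum follows mainly Alb, and the share of these differences that goes with cell composition was not tested.

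**Figure D3:**
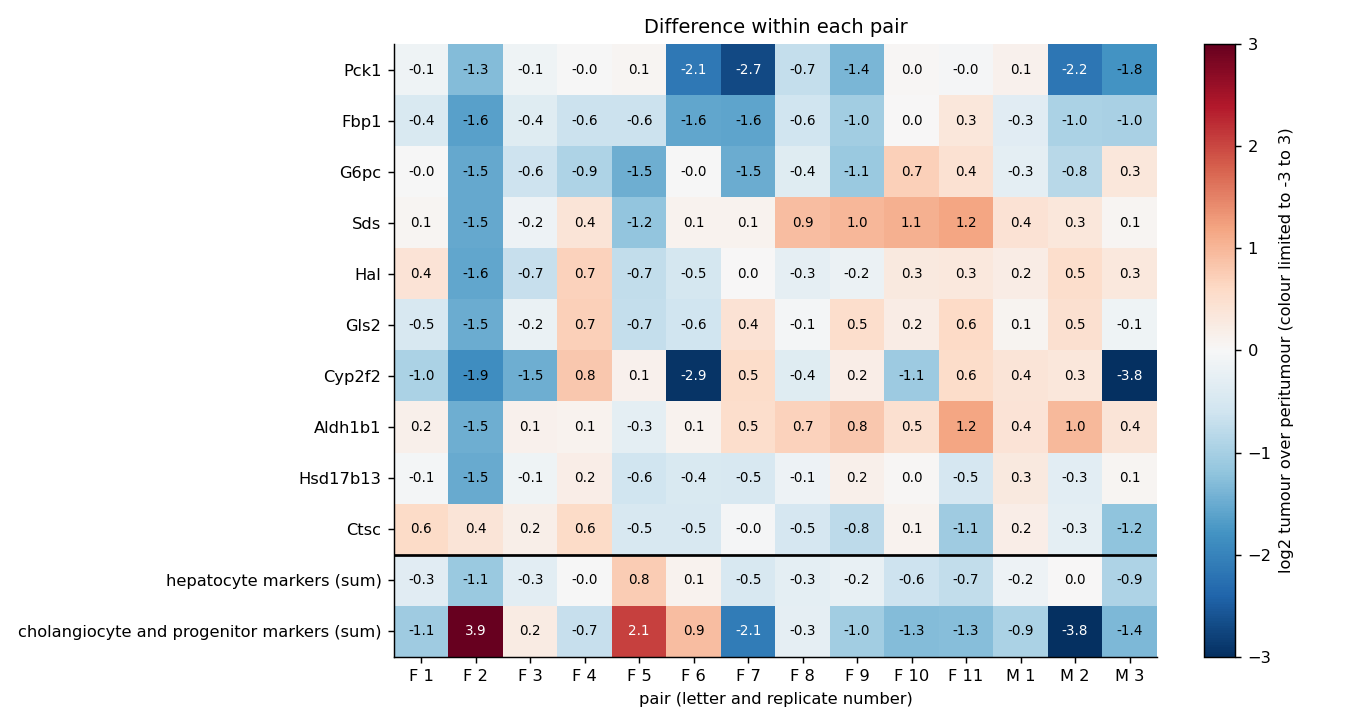
Tumour minus peritumour difference on the log2 scale for the 10 genes (rows) in each of the 14 pairs (columns), with the summed hepatocyte and the summed cholangiocyte and progenitor markers under the line. Gene values use TMM scaling and marker sums plain CPM, so rows above and below the line are not on one scale. The F 2 column is blue in 9 of 10 genes with the cholangiocyte sum at 3.9, the Aldh1b1 row is red in 12 of 14 pairs, and the Cyp2f2 row reaches -3.8 in pair M 3.

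Whether the genes moved together was asked over the 14 pair differences, in 45 pairs of genes. Pearson's r was positive in 36 of 45, with a median of 0.37 and a range from -0.48 to 0.87. It passed in 8 of 45 (two-sided permutation test, 100000 resamples, Benjamini-Hochberg adjustment over the 45), and 3 of these also passed with Spearman's rho. Sds and Aldh1b1 gave r = 0.87 (adjusted permutation p = 0.00315) and rho = 0.77 (adjusted p = 0.0374). Pck1 and Fbp1 gave r = 0.81 (adjusted permutation p = 0.00585) and rho = 0.74 (adjusted p = 0.0376). Sds and Gls2 gave r = 0.80 (adjusted permutation p = 0.00641) and rho = 0.79 (adjusted p = 0.0374).

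Leaving out the 2 animals farthest from the median on the x axis kept the relation of Pck1 and Fbp1 by Pearson's r (r = 0.81, adjusted permutation p = 0.0401, without pairs F 7 and M 2). Spearman's rho of that pair no longer passed (rho = 0.69, adjusted permutation p = 0.308). The other 7 relations no longer passed without pairs F 2 and F 5, where r ranged from 0.18 (Hal and Sds) to 0.68 (Sds and Aldh1b1, adjusted permutation p = 0.246). Within a code style 0 of 45 passed by exact permutation test (6 animals of the first, 8 of the second). With 6 animals the least p of an exact test is too large for a single relation to pass over 45. The first-style result is therefore no sign that a relation is absent there. Pck1 and Fbp1 gave r = 0.71 in the first style and 0.87 in the second, with adjusted exact permutation p = 0.337 and 0.103. Sds and Aldh1b1 gave 0.96 and 0.85, with adjusted exact permutation p = 0.1875 and 0.103. Sds and Gls2 gave 0.94 and 0.66, with adjusted exact permutation p = 0.1875 and 0.609. Pairs F 2 (first style) and F 5 (second) were kept in these values. All genes of a library share its composition, and the part of that in these relations was not tested.

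**Figure D4:**
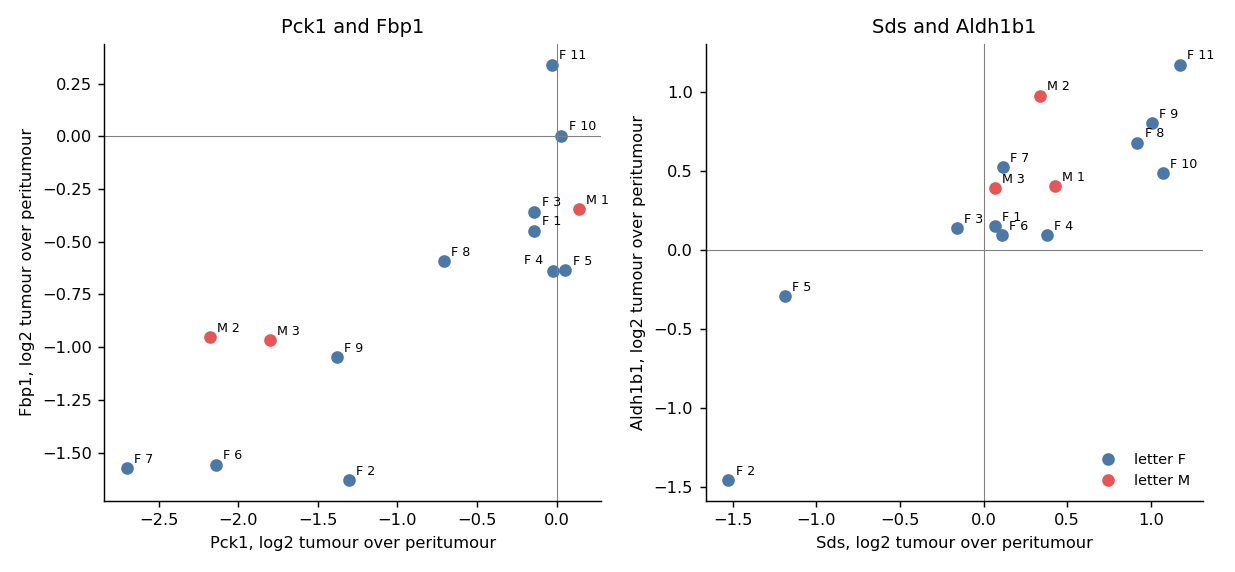
Tumour minus peritumour differences on the log2 scale for Pck1 against Fbp1 (left) and Sds against Aldh1b1 (right), with 1 point per pair (blue, letter F; red, letter M). The left cloud runs from pairs F 6 and F 7 at the lower left to pairs F 10 and F 11 near or above 0 (r = 0.81), and on the right pairs F 2 and F 5 lie apart at the lower left (r = 0.87).

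The genes most like each member were sought among 12890 genes by Pearson's r of log2 CPM over all 28 libraries, which share animals and tissue, so these values are a description. Fbp1 was most like Apoa5, an apolipoprotein of triglyceride transport (r = 0.96), and Cyp2d9 (r = 0.93), both lower in tumour in the paired fit (-0.64, adjusted p = 0.0328, and -0.99, adjusted p = 0.00191, edgeR). Pck1 was most like Psen2 (r = 0.90), a presenilin, and Cyp2c37 (r = 0.89), also both lower (-0.51, adjusted p = 0.0304, and -1.45, adjusted p = 0.00784, edgeR). Cyp2d9 and Cyp2c37 belong to families of close copies, so their share of reads is uncertain. G6pc was most like Arl4d (r = 0.91) and Lhpp (r = 0.83). Hal was most like Amdhd1 (r = 0.88), a later enzyme of the same histidine route, and Selenoo (r = 0.84). Gls2 was most like Aldh16a1 (r = 0.82) and Uroc1 (r = 0.81), the second enzyme of histidine breakdown.

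Cyp2f2 went with Nsmf (r = 0.92) and the adhesion molecule Ceacam1 (r = 0.92), Sds with Spata2l and Apbb3 (r = 0.80 each), and Aldh1b1 with Apeh (r = 0.87) and Dele1 (r = 0.85). Hsd17b13 went with Adk, adenosine kinase (r = 0.85), and the monocarboxylate carrier Slc16a7 (r = 0.85). Ctsc went with Klrk1, a receptor of natural killer and T cells with a mean of 1.79 CPM (r = 0.88), and Ikbke (r = 0.845).

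Related genes were counted in the paired fit, on lists chosen with earlier results of these data known. In that fit 789 of all 14117 genes passed as higher and 835 (5.91%) as lower, 11.5% in either direction. Each list count below is to be read against these shares. Of 12 other periportal genes, 3 were lower and 0 higher, with a median of -0.27, against -0.22 for the 10 members and -0.01 for all genes tested. The 3 were Cps1, the entry enzyme of the urea cycle (-0.51 ± 0.14, adjusted p = 0.0239), Arg1, arginase (-0.39 ± 0.10, adjusted p = 0.0241), and Pigr, the immunoglobulin carrier (-0.68 ± 0.21, adjusted p = 0.0469; SE, edgeR). Cps1 averaged 3278 ± 646 CPM in peritumour tissue and 2427 ± 757 CPM in tumour (SD, n = 14 each). Arg1 was lower in 14 of 14 pairs, with a median difference of -0.27 and the smallest at -0.0016 on the log2 scale. Of all genes tested, 7.03% were lower in at least 12 of 14.

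Of 10 pericentral genes 9 were lower and 0 higher, with a median of -0.95. Tbx3, a transcription factor of pericentral hepatocytes, measured -1.06 ± 0.13, adjusted p = 0.000714, and Cyp1a2 -1.37 ± 0.18, adjusted p = 0.000733 (SE, edgeR), each lower in 14 of 14 pairs. Only Glul, glutamine synthetase, did not pass among them. Without the block 1 pericentral gene (Tbx3) and 0 of the members and other periportal genes passed. Without pairs F 2, F 5 and F 6 the paired fit called 7 pericentral and 2 other periportal genes lower, and of the members 1 lower and 2 higher, where 7.86% and 7.01% of all genes passed in those directions. The 2 higher members, Sds and Aldh1b1, were both lower in the left-out pairs F 2 and F 5. The 2 zones share the same libraries and no test was made of the difference between them.

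**Figure D5:**
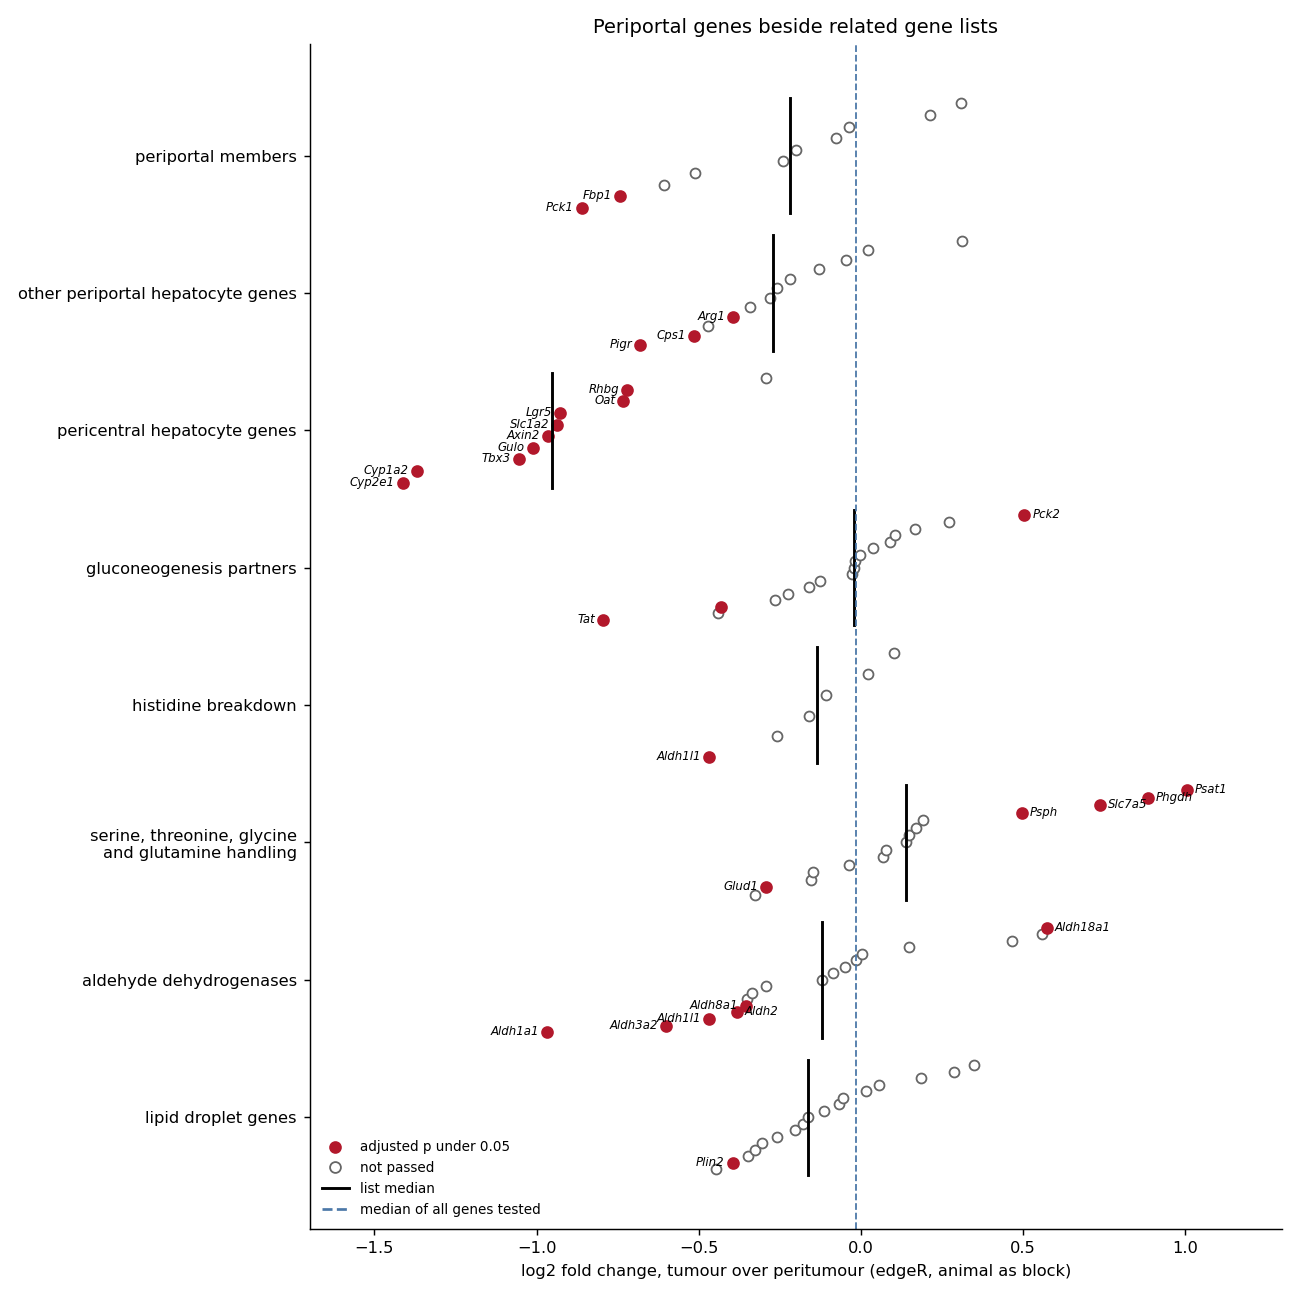
Log2 fold change of tumour over peritumour from the paired edgeR fit for the 10 periportal genes and 7 related lists, with 1 point per gene (red, adjusted p under 0.05, all but 1 of them named), a black bar at each list's median and a dashed line at the median of all genes tested (-0.01). The pericentral genes lie left of 0 with a median of -0.95, while the periportal medians are -0.22 and -0.27.

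Around the gluconeogenic members, 17 partner genes were counted and 1 was higher and 2 lower, where 11.5% of all genes passed in either direction. Pck2, the mitochondrial counterpart of Pck1, rose by 0.50 ± 0.14 (SE), adjusted p = 0.0333 (edgeR), from 18.1 ± 4.67 CPM in peritumour tissue to 27.8 ± 12.5 CPM in tumour (SD, n = 14 each). Its tumour level was the higher in 11 of 14 pairs. Tat, tyrosine aminotransferase, fell by 0.79 ± 0.14, adjusted p = 0.00270 (SE, edgeR), and was lower in 14 of 14 pairs. The ratio of Pck2 to Pck1 in TPM was higher in tumour in 10 of 14 pairs, with a median of 0.0243 in peritumour tissue and 0.0565 in tumour, so Pck1 remained the more abundant by median in both. Pcx, pyruvate carboxylase, and Slc37a4, the glucose-6-phosphate transporter, did not pass with or without the block.

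Of 11 genes of glucose uptake and early glycolysis, 1 passed, where 11.5% of all genes did in either direction. It was Gckr, the regulator of glucokinase, which was lower (-0.45 ± 0.11 (SE), adjusted p = 0.0136, edgeR). Among 12 genes that answer to fasting or glucocorticoids 3 were lower and 1 higher. Tat and Tsc22d3 (-0.44 ± 0.10, adjusted p = 0.0136) had the smallest adjusted p among the lower ones, Pdk4 was the other, and Fkbp5 was higher (0.31 ± 0.07, adjusted p = 0.0169; SE, edgeR). Tat and Ppargc1a stand in both this list and that of gluconeogenesis partners.

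Beside Sds and Gls2, 15 genes that make, move or use serine, glycine, threonine and glutamine were tested, and 4 were higher and 1 lower, with a median of 0.14. The 3 enzymes of serine synthesis were all among the higher. Psat1 rose by 1.00 ± 0.17, adjusted p = 0.00212, and Phgdh by 0.88 ± 0.19, adjusted p = 0.00902 (SE, edgeR). Phgdh went from 133 ± 88.1 CPM to 241 ± 110.4 CPM (SD, n = 14 each). Tumour held more Phgdh in 14 of 14 pairs and more Psat1 in 13 of 14 (14 on plain CPM), where 6.13% of all genes were higher in at least 12. Psph and the amino acid carrier Slc7a5 were the other 2, and Glud1, glutamate dehydrogenase, fell by 0.29 ± 0.09 (SE), adjusted p = 0.0455 (edgeR). Beside Hal, 6 genes of the histidine and folate route gave 0 higher and 1 lower, Aldh1l1 (-0.47 ± 0.11, adjusted p = 0.0171; SE, edgeR). Aldh1l1 is counted again among the aldehyde dehydrogenases below, and Ftcd and Uroc1 of this route also stand among the other periportal genes.

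Among 17 other aldehyde dehydrogenases tested beside Aldh1b1, 1 was higher and 5 lower. Aldh18a1, which makes a proline precursor, was higher (0.57 ± 0.12, adjusted p = 0.00862), and Aldh1a1, a retinaldehyde dehydrogenase, and Aldh3a2, a fatty aldehyde dehydrogenase, were lower (-0.97 ± 0.14, adjusted p = 0.00105, and -0.60 ± 0.12, adjusted p = 0.00532; SE, edgeR). Of 17 lipid droplet genes beside Hsd17b13, 1 was lower, where 5.91% of all genes were, so the count says nothing particular of the list. It was Plin2 (-0.40 ± 0.12 (SE), adjusted p = 0.0390, edgeR). Plin2, which coats lipid droplets, averaged 520 ± 217 CPM in peritumour tissue and 399 ± 146 CPM in tumour (SD, n = 14 each), with 12 of 14 pairs lower. Beside Ctsc, 0 of 13 cathepsins and cystatins passed, and 2 (Ctsk and Ctss) were lower without pairs F 2, F 5 and F 6. Of 5 tested proteases that cathepsin C activates, Gzmb, granzyme B, was lower (-0.62 ± 0.15, adjusted p = 0.0159; SE, edgeR), a call lost without pairs F 2, F 5 and F 6 (-0.45, adjusted p = 0.0517, edgeR).

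M and F samples were compared within each tissue by edgeR on the 4 groups with code style as a covariate. Over both code styles, ranges of M and F overlapped for all 10 genes in both tissues, where 0.482% of all genes were separated in peritumour tissue and 1.44% in tumour. All M samples have the first style. Against the 3 F samples of that style, M was wholly lower for Hal, Sds, Gls2 (153 to 312 against 394 to 416 CPM) and Aldh1b1 in peritumour tissue. In tumour this held for Ctsc alone (42.9 to 132 against 145 to 185 CPM). The share of all genes so split was not counted. By edgeR within that style 0 of the 10 passed in either tissue, where 4 and 6 genes did. None of the 10 passed in peritumour tissue or in tumour (adjusted p from 0.645 to 1.0, edgeR), where 0.0283% of all genes passed in each, and 0 passed with DESeq2. Hal in peritumour tissue was the only member with an unadjusted p under 0.05 in either tissue (edgeR). Its difference, M minus F, was -1.02 ± 0.42 on the log2 scale (SE), p = 0.0217 before and 1.0 after adjustment (edgeR), and 1.52% of all genes had an unadjusted p under 0.05 there. Hal measured 102 ± 38.4 CPM in Pe_M (SD, n = 3) and 164 ± 52.1 CPM in Pe_F (SD, n = 11), or 231 ± 41.8 CPM (SD, n = 3) in the F samples of the same code style.

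Whether tumour and peritumour differed by another amount in M than in F was tested as an interaction, and 0 of the 10 passed and 0 had an unadjusted p under 0.05, in either fit (0.0% of all genes passed with or without the block, with 3.0% and 7.09% at an unadjusted p under 0.05 without and with it). With the block Fbp1 gave an interaction of -0.02, 95% interval -0.73 to 0.69, and Pck1 -0.56, 95% interval -1.75 to 0.63. With 3 M pairs, these intervals span more than the tissue difference itself.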

How the data were processed

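Tumour and peritumour liver of 14 animals was measured by RNA sequencing of oligo(dT)-selected RNA, primed with random hexamers, per the labels' protocols. The sources used here do not state whether the libraries kept strand, so reads of a gene and of its antisense partner are not separable. Per the submitters' processing notes the tools were Bowtie2 2.2.5, HISAT2 2.0.4, DESeq2 1.4.5 and RSEM 1.2.12, with no roles given. Per the file headers, the authors deposited TPM values and estimated counts for every gene and library, and 8.06% of the latter are fractional. Log2 fold changes of tumour and peritumour are a further part of the authors' deposited table. Coordinates are those of that table, whose sequence accessions are of GRCm38. Of 18183 rows, 1 without a gene ID was left out, and 26 symbols turned into dates were looked up by gene ID. Of 2 rows that share the symbol Plin2, the one that passed the filter on low counts was used.

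Counts were rounded and tested in R 4.3.3 with edgeR 4.0.16 (filterByExpr, TMM scaling with factors of 0.809 to 1.36, robust quasi-likelihood fit, adjusted p threshold 0.05). Log2 CPM used a prior count of 2. The 95% intervals take the SE with a normal distribution, narrower than the edgeR test implies, and calls rest on the test alone. Code style and letter were covariates, and a second fit took the animal as a block. The pairing comes from the shared codes. Deviations from the group means correlated within every pair (r from 0.15 to 0.64, median of unpaired libraries -0.01), and 11 of 14 tumours were closest to their own peritumour sample. The biological coefficient of variation was 0.381 without and 0.27 with the block. No pair of libraries of a group agreed within sampling noise (lowest index of dispersion 19.3). P-values of the paired fit rest on the spread of the tumour minus peritumour difference over these animals. Those without the block treat the 28 libraries as independent, though they come from 14 animals. The scripts were tested on simulated data. The members, the 12 gene lists and 8 marker lists, the designs and the alternatives were chosen with earlier results of these data known. All 10 members are named, and from each list up to 2 higher and 2 lower genes of smallest paired adjusted p, plus the 2 genes most like each member with a mean of at least 1 CPM. Genes named beyond this rule (Pigr, Pdk4, Psph, Slc7a5, Glul, Pcx, Slc37a4, Ctsk, Ctss) were chosen after their values were seen, and 1 gene that the rule names is not reported here. Alternatives were other scalings (library size alone, RLE size factors), DESeq2 1.42.0, no filter on low counts, code styles apart, and animals left out.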

Additional observations from a re-analysis of the deposited data

How the results depend on the processing

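The number of animals, 14 with 3 M among them, limits the precision more than depth does, and feeding state and time of sampling are unknown. Without the block, tumour against peritumour passed 0 of the 10 genes, but 1 without pairs F 2, F 5 and F 6 and 2 with the replicate block. Over all genes that comparison called 148, with 622 by DESeq2, 64 without the filter on low counts, 455 without pairs F 2, F 5 and F 6, 1624 with the replicate block, and 0 to 246 when 1 animal was left out. Within pairs, 0 of the 10 passed in the first code style alone and 0 in the second, where 0 and 981 genes passed in all, against 2 and 1624 over all pairs. Leaving out 1 animal gave 1 to 3 members and 899 to 1957 genes. For M against F in tumour, 4 genes were called, with 66 by DESeq2 and 7 without pairs F 2, F 5 and F 6, and the interaction called 0 genes, with 1 by DESeq2. Of the 8 relations between members, 0 passed in the first code style, 0 in the second and 1 without the 2 farthest animals. In the first style, with 6 animals, a single relation could not have passed. The cause of these changes was not tested. Fits by code style or with animals left out also hold fewer animals, and the others hold all of them. Of 980 values of single members under the alternatives, none that had passed changed sign, and 64 that had not passed did. Among the 10 members the block changed no other call than those of Fbp1 and Pck1, and for M against F no paired analysis was possible because the animals differ.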
